A study of Homo sapiens with 5 samples.

Results

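The mitochondrial ribosomal proteins examined here are the 73 genes, of 11976 in the authors' deposited table, whose symbol is MRPL or MRPS followed by a number. They were chosen by symbol, with earlier results of these data known, and the pseudogene with such a symbol, MRPL45P2, was left out. Their RNA was compared between 3 libraries labelled as an ERF knockout and 2 labelled as wild type, all from HUDEP-2, a line of immortalised red cell progenitors of umbilical cord blood origin. ERF is an ETS-domain transcriptional repressor. No treatment or time is given in the labels, the wild-type titles carry the unexplained letters SCR, and the labels do not say whether the knockout libraries came from 1 clone or whether the libraries of a group were separate cultures. P-values therefore measure only the spread between these libraries, which may be technical.

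Mitochondrial ribosomes, or mitoribosomes, translate the few proteins encoded by mitochondrial DNA, which are core subunits of the respiratory chain and of the ATP synthase. Their RNAs come from the mitochondrial genome, while every protein of the particle is encoded in the nucleus, made in the cytosol and imported. Some of these proteins descend from bacterial ribosomal proteins, and others were added in the mitochondrial lineage. Developing red cells depend on mitochondria for heme synthesis and later discard them.

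All values come from the authors' deposited table, which holds a log2 fold change and a mean log2 CPM (read counts scaled to a common library total) over all libraries for each gene and no value per library, so the depth and the spread of single libraries are unknown. Its header does not name the reference group. The sign was set so that the γ-globin gene HBG2 is higher in the libraries labelled knockout (log2 fold change 1.88, derived standard error 0.22), because reactivation of γ-globin is what the series title reports for inactivated ERF. Under this sign ERF RNA was also higher in the libraries labelled knockout, by 0.89 on the log2 scale (standard error 0.07, Benjamini-Hochberg adjusted p from the quasi-likelihood test 6.44e-06), which goes against the label. The table cannot say whether the remaining ERF RNA is intact, and reading the sign the other way exchanges every direction below. All 12 erythroid marker genes were measured in the authors' deposited table, 8 of them called higher and 0 lower, with a median log2 fold change of 0.26. The anion exchanger SLC4A1 (band 3) was 3.41-fold higher (log2 fold change 1.77), the α-globin gene HBA2 2.08-fold (1.06) and the transferrin receptor TFRC 2.02-fold, each larger than the change of any mitoribosomal gene described below. Of 12 markers of other blood lineages 4 were measured and 8 were not analysed here. The mast cell tryptase TPSAB1 was called higher (log2 fold change 0.61, at 9.18 log2 CPM), and PTPRC (0.08), ITGA2B (-0.07) and LYZ (-0.19) were not called. The part of these markers in the results below was not tested.

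Mitoribosomal protein RNA was more often higher than lower in the libraries labelled knockout. At an adjusted p below 0.05, 41 of the 73 genes differed in the authors' deposited table, 34 of them higher and 7 lower. Over all 11976 genes, 50.9% were called, 24.9% higher and 25.9% lower, against 46.6% and 9.59% of the mitoribosomal genes. Being called at all was thus about as frequent as in the whole table, and the split between directions was not. The median log2 fold change was 0.143 over the 73 genes and -0.002 over all genes. Changes were small: 22 of the 41 called genes differed by at least 1.2-fold, 21 of them higher, 2 by at least 1.5-fold and 0 by at least 2-fold.

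Calls were also counted within a range of expression, on the CPM scale, which is not corrected for gene length. The median of mean log2 CPM was 5.17 over the mitoribosomal genes and 4.64 over all genes. Among genes of 4 to 7 log2 CPM, 26 of 58 mitoribosomal genes were higher and 6 lower, where 29.4% of 6022 genes were higher and 25.4% lower. Another 13 mitoribosomal genes lay under 4 log2 CPM, and 7 of these were called, each higher. The calls of all genes in that range were not counted, so this count has no background beside it. Among the called ones, MRPL53, MRPL12, MRPS17, MRPS28 and MRPL33 share over 20% of their exonic bases with another gene, and MRPL36 and MRPS6 do not. All 73 passed whatever filter the table carries. MRPS24, MRPL30 and MRPL38 were not analysed here.

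**Figure D1:**
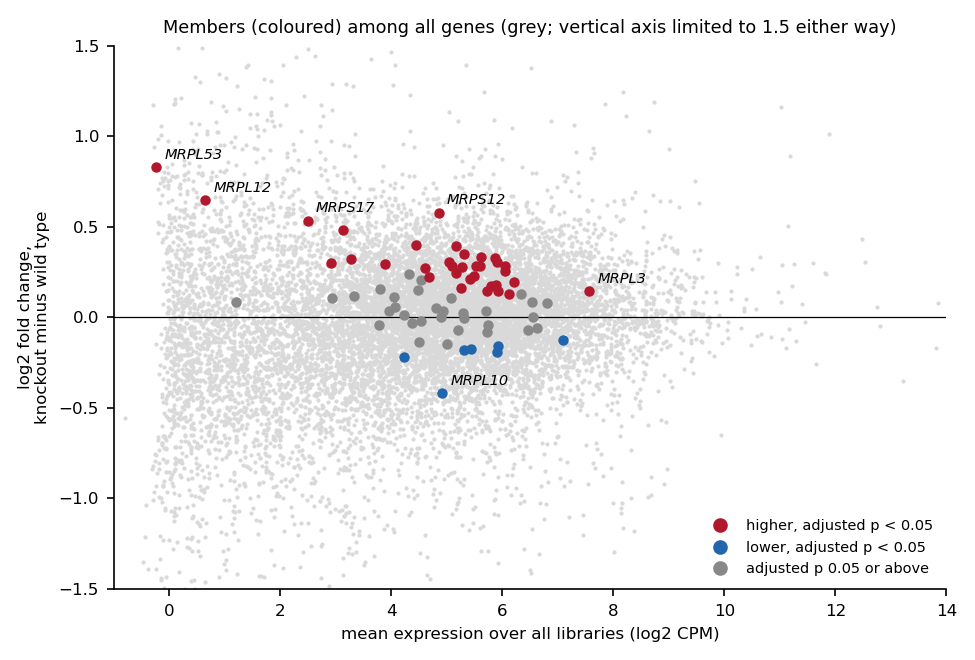
Log2 fold change of the libraries labelled knockout against wild type (vertical axis) by mean expression over all libraries in log2 CPM (horizontal axis), with all genes in grey and the 73 mitoribosomal protein genes in colour by call. The coloured points lie mostly above 0, with MRPL53 and MRPL12 at low expression and MRPL10 the lowest.

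Members were set side by side by the 2 subunits. Of 28 MRPS genes, named for the small subunit that reads the messenger RNA, 9 were higher and 3 lower (32.1% and 10.7%). Their median log2 fold change in the authors' deposited table was 0.08. Of 45 MRPL genes, named for the large subunit that joins amino acids, 25 were higher and 4 lower (55.6% and 8.89%). Their median was 0.15. The shares over all genes were 24.9% higher and 25.9% lower. Among genes of at least 5 log2 CPM the MRPS median was -0.04 and the MRPL median 0.19. The MRPS median thus changed direction with this filter on expression, and the difference between the subunits was not tested. Symbols do not always match the subunit: in the systematic names of RefSeq, MRPS30 is mL65 and MRPS18A is mL66, both large-subunit proteins. With these moved, 26 genes fall in the small subunit and 47 in the large. MRPS28 and MRPS36, which had no systematic name, were placed in the small subunit by symbol.

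The systematic names also class proteins as having a bacterial counterpart (prefix u or b) or as mitochondrial (prefix m). The prefix m does not exclude a bacterial relative: MRPS18B (mS40) and MRPS18A (mL66) carry it and are relatives of bacterial S18. Of 43 members with a bacterial counterpart 27 were higher and 3 lower, or 62.8% and 6.98%, with a median log2 fold change of 0.19. Of the 28 members with prefix m, 6 were higher and 4 lower, or 21.4% and 14.3%, with a median of 0.03. Of all genes 24.9% were higher and 25.9% lower, so the share of prefix m members called higher was near that of all genes. Median log2 CPM was 5.17 in the first class and 5.36 in the second. In the small subunit, 8 of 14 members with prefix u or b were higher and 0 lower. Of 10 with prefix m, 0 were higher and 3 (30%) lower, MRPS18B among them, where 25.9% of all genes were lower. In the large subunit the counts were 19 higher and 3 lower of 29, and 6 higher and 1 lower of 18. MRPS28 (called higher) and MRPS36 (not called) had no systematic name in the table used.

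This grouping by systematic name was chosen after the values were seen, in place of lists that follow the older numbering. Of 16 small-subunit genes that those lists place with a counterpart 8 were higher and 1 lower. Of 12 that they place without one 1 was higher and 2 lower. The gene lower among those listed with a counterpart was MRPS18B, and the gene higher among those listed without one was MRPS28. By systematic name MRPS18B has prefix m. MRPS28 had no name in the source used, which does not say whether it has a bacterial counterpart. The counts of 0 above therefore depend on the grouping. For the large subunit the lists gave 19 higher and 3 lower of 28, and 6 higher and 1 lower of 17. The difference between the classes was not tested under either grouping.

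**Figure D2:**
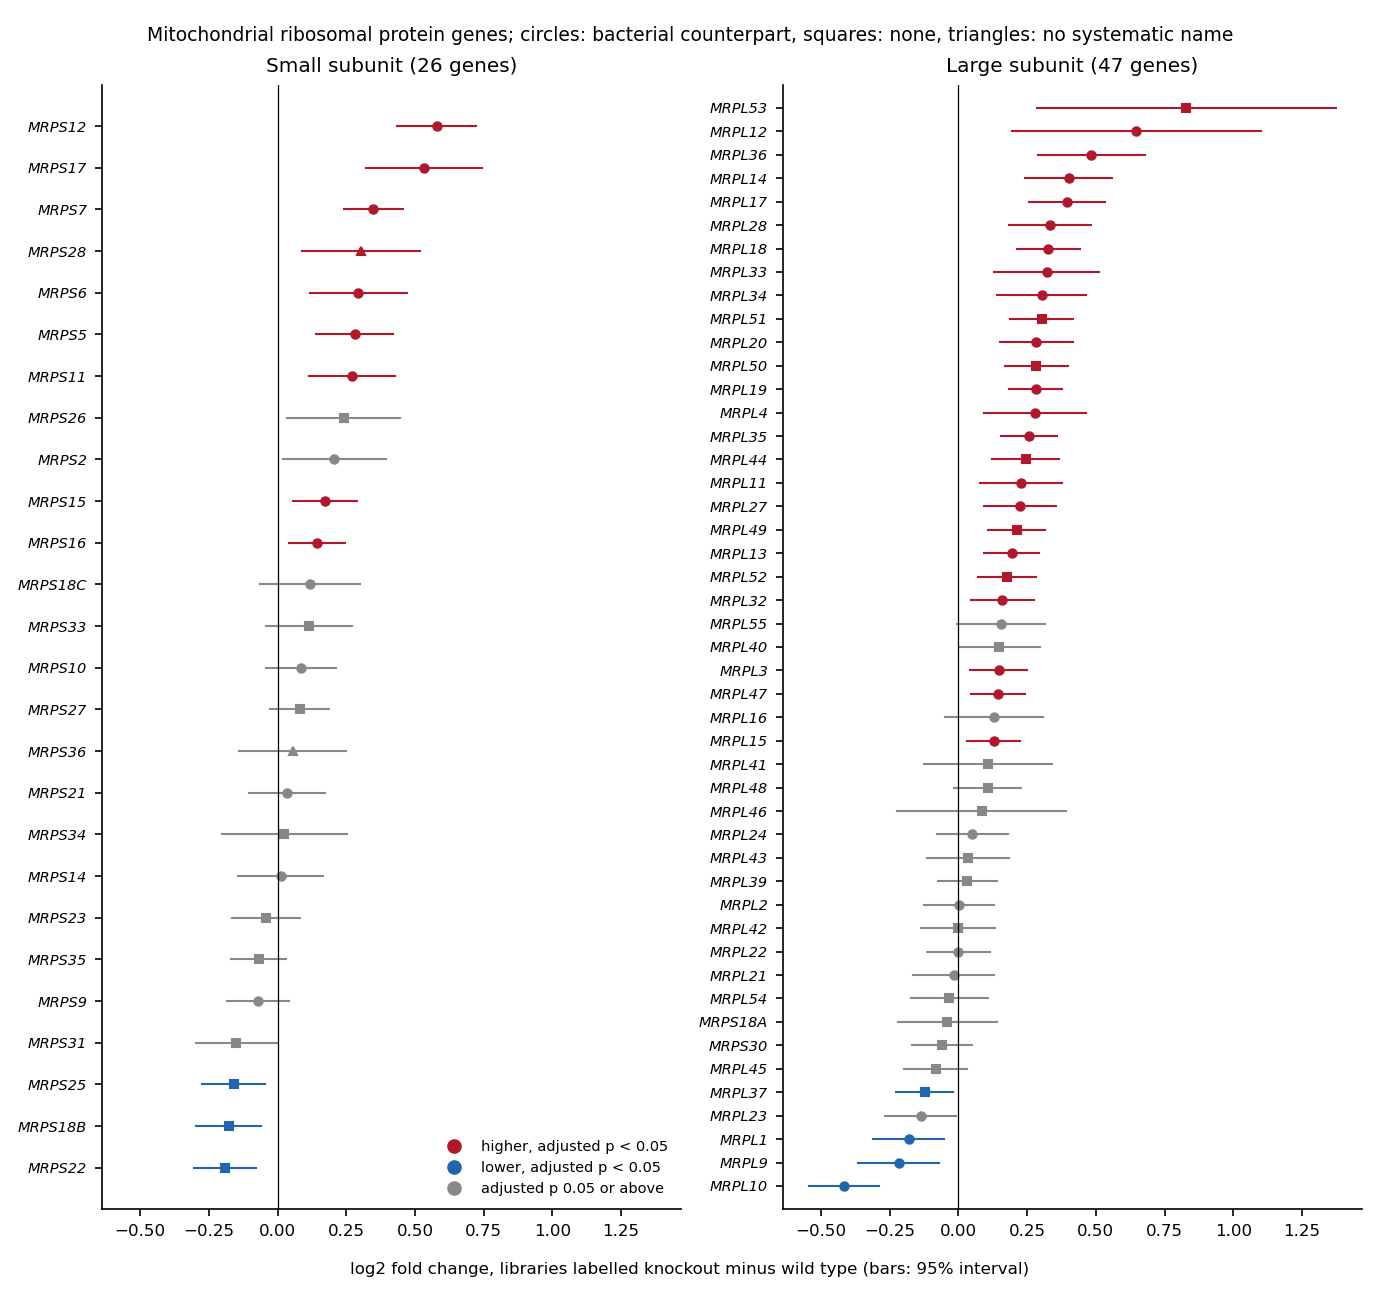
Log2 fold change of each of the 73 genes with its derived 95% interval (horizontal axis) by gene, small subunit on the left and large subunit on the right, where red is called higher, blue called lower and grey not called. Circles are proteins with prefix u or b (bacterial counterpart), squares those with prefix m and triangles the pair with no systematic name. In the small subunit none of the squares is red.

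The small-subunit genes that were higher include proteins that touch the messenger RNA and its decoding. MRPS12, the counterpart of the bacterial decoding-centre protein S12, had the largest fold of the subunit in the authors' deposited table: 1.49-fold, a log2 fold change of 0.58 (standard error 0.06, adjusted p 5.6e-05). MRPS17 stood at 0.53 (standard error 0.10, adjusted p 0.00107) at a low 2.49 log2 CPM. MRPS7, a primary binder of the head of the small-subunit RNA, was higher by 0.35 (standard error 0.05, adjusted p 0.000217). These 3 intervals all lie above 0.2 on the log2 scale. MRPS28, MRPS6, MRPS5, MRPS11, MRPS15 and MRPS16 were higher by 0.14 to 0.30. MRPS11 is the counterpart of the platform protein S11, and MRPS5 of S5, which lines the entry path of the messenger RNA.

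The 3 small-subunit genes called lower all carry the prefix m in their systematic names, and 1 of them, MRPS18B, encodes a relative of bacterial S18. MRPS22 fell by 0.19 on the log2 scale in the authors' deposited table (standard error 0.05, adjusted p 0.00962), MRPS18B by 0.18 (standard error 0.05, adjusted p 0.0173) and MRPS25 by 0.16 (standard error 0.05, adjusted p 0.0255). Variants in MRPS22 are a known cause of mitochondrial disease. MRPS18B (mS40) is 1 of 3 relatives of bacterial S18; the others, MRPS18C (bS18m) and MRPS18A (mL66), stood at 0.12 and -0.04 and were not called. MRPS26 was the member nearest the threshold that was not called (log2 fold change 0.24, standard error 0.09, adjusted p 0.0516).

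In the large subunit the largest folds came from genes of low log2 CPM. In the authors' deposited table MRPL53, a protein at the base of the stalk, stood at a log2 fold change of 0.83 (standard error 0.24, adjusted p 0.0164) and -0.24 log2 CPM. MRPL12, present in several copies as the flexible stalk itself, stood at 0.65 (standard error 0.20, adjusted p 0.0224) and 0.65 log2 CPM. Both share much of their exons with another gene on the same strand in GENCODE 29: 45.2% of MRPL53 with CCDC142 and 68.2% of MRPL12 with AC139530.2. The sources used here do not say how reads of such pairs were assigned, so both values are uncertain. On the same strand MRPS17 likewise shares 21.8% with AC092647.5, MRPS28 35.8% with AC036214.3 and MRPL33 21.1% with BABAM2. On the opposite strand MRPL51 shares 31.3% with NCAPD2 and MRPS25 22.2% with NR2C2. In all 10 members share over 20% of their exonic bases with another gene. Without these 10, a choice made after the data were seen, 28 of 63 members were higher and 6 lower.

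Further large-subunit genes had higher log2 CPM and narrower intervals. MRPL36, a small zinc-binding protein, was higher by 0.48 (standard error 0.09, adjusted p 0.00115). MRPL14, which lies at the interface between the subunits, was higher by 0.40 (standard error 0.07, adjusted p 0.00107). MRPL17, next to the exit tunnel, was higher by 0.39 (standard error 0.06, adjusted p 0.000516). Next by size in the authors' deposited table were MRPL28 at 0.33 (standard error 0.07, adjusted p 0.00217) and MRPL18 at 0.33 (standard error 0.05, adjusted p 0.000518). MRPL18 sits in the central protuberance, the crown of the subunit. MRPL3, the counterpart of a protein near the peptidyl transferase centre, was higher by 0.15 (standard error 0.05, adjusted p 0.0231). The calls of MRPL3, MRPL15, MRPL32, MRPL47 and the small-subunit MRPS16 were lost when fold changes were centred on the median of genes of at least 5 log2 CPM. The remaining called increases of the subunit ran from 0.13 (MRPL15) to 0.32 (MRPL33). The 32 members of either subunit that were not called ran from -0.15 (MRPS31) to 0.24 (MRPS26).

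The stalk, where translation factors dock, held members called in both directions. Of its 5 listed proteins, MRPL53, MRPL12 and MRPL11 were called higher, MRPL10 lower, and MRPL54 was not called, with a list median of 0.23. The shares were 60% higher and 20% lower, against 24.9% and 25.9% of all genes. MRPL10 anchors the copies of MRPL12 to the subunit. It had the largest decrease of any member, 1.34-fold, a log2 fold change of -0.42 (standard error 0.06, adjusted p 0.000202). MRPL11, at the stalk base, stood at 0.23 (standard error 0.07, adjusted p 0.0168). MRPL10 and MRPL11 were thus called in opposite directions in the authors' deposited table. The increases of MRPL12 and MRPL53 are uncertain because of the shared exons given above.

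The other decreases in the large subunit were smaller. MRPL9 fell by 0.22 on the log2 scale (standard error 0.07, adjusted p 0.0186). MRPL1, the protein of the mobile arm that leads the empty transfer RNA out of the ribosome, fell by 0.18 (standard error 0.06, adjusted p 0.0248). MRPL37 fell by 0.12 (standard error 0.05, adjusted p 0.0497) and was the called member nearest the threshold. Its call was lost when fold changes in the authors' deposited table were centred on the median of all genes.

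Around the polypeptide exit tunnel 3 of 8 listed members (37.5%) were higher, MRPL17, MRPL44 and MRPL47, and 0 lower. Their median log2 fold change was 0.04. MRPL45, which holds the ribosome to the inner membrane, stood at -0.08 (adjusted p 0.203); the pseudogene MRPL45P2 stood at -0.32 (adjusted p 0.0727), and reads of near-identical copies may be divided between them. In the central protuberance 2 of 6 listed members (33.3%) were higher, MRPL18 and MRPL52, and 0 lower, with a median of 0.15. Beside both lists stand 24.9% of all genes called higher and 25.9% called lower.

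Among mitoribosome proteins with other symbols, 3 of 7 (42.9%) were higher and 0 lower, against 24.9% and 25.9% of all genes. Their median log2 fold change in the authors' deposited table was 0.15. GADD45GIP1 (mL64) stood at 0.39, MRP63 (MRPL57) at 0.36 and AURKAIP1 at 0.21. The small-subunit GTPase DAP3 stood at -0.07 (adjusted p 0.199).

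ERF belongs to the ETS family, whose members bind DNA around a GGAA core, and the activator GABP (also called NRF2), of the same family, is known to bind promoters of nuclear genes for mitochondrial proteins. Promoter windows from RefSeq (GRCh38.p14; 250 bases before to 50 after each gene's start, first-listed window) were found for 64 of the 73 members. MRPL2, MRPL10, MRPL13, MRPL15, MRPL21, MRPL23, MRPL35, MRPS28 and MRPS36 had none. The ETS letters CCGGAAGT were searched on both strands, and the 100 bases before the start are shown for all 7 members that hold them there, to set the 5 called higher beside MRPS22, called lower, and MRPS34, not called. Capitals mark the 8-letter match. All are given along the gene's strand.
MRPL53, chr2:74472681-74472780, minus strand, higher: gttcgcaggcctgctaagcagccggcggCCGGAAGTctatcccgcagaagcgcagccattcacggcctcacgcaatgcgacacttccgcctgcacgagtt
MRPL20, chr1:1407294-1407393, minus strand, higher: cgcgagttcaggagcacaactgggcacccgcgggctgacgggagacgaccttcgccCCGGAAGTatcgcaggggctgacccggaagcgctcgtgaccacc
MRPL27, chr17:50373185-50373284, minus strand, higher: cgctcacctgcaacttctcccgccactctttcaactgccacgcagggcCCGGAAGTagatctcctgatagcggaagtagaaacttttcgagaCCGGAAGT
MRPL3, chr3:131502972-131503071, minus strand, higher: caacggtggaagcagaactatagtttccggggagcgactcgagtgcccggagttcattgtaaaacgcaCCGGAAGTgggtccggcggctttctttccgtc
MRPL47, chr3:179604639-179604738, minus strand, higher: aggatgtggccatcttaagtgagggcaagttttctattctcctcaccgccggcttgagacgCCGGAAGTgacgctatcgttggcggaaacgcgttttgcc
MRPS34, chr16:1773135-1773234, minus strand, not called (match on the other strand): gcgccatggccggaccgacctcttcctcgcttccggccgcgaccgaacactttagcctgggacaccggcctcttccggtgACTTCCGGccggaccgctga
MRPS22, chr3:139343894-139343993, plus strand, lower (match on the other strand): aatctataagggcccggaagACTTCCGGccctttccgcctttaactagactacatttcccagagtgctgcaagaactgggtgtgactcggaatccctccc

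The 8 letters stood in 10 of 64 member promoters (15.6%), against 4.44% of all 27305 promoters and 9.83% of the 8477 promoters of genes in the authors' deposited table. The shorter core CCGGAA, contained in the longer letters, stood in 35 (54.7%), against 17.6% and 31.9%. GCGCATGC, the letters of nuclear respiratory factor 1 (NRF1), stood in 6 (9.38%), against 3.27% and 6.18%, and AAGATGGCG, those of YY1, in 11 (17.2%), against 1.85% and 4.46%. The letters of all 3 factors were thus more frequent in member promoters than in both backgrounds, as a description.

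Members with and without the ETS core were both more often higher than lower. Of 35 members with the ETS core 14 were higher and 3 lower in the authors' deposited table, and their median log2 fold change was 0.12. Of 29 without it 16 were higher and 3 lower, and the median was 0.21. Among the 10 with the 8 letters 7 were higher, 1 was lower, and MRPL16 and MRPS34 were not called, with a median of 0.16. Of the 54 without the 8 letters 23 were higher and 5 lower, and the median was 0.13. A match is not a site bound by ERF, and no match says only that these letters are not in this window. RNA of the factors themselves was not called for GABPA (0.12, adjusted p 0.0947), NRF1 (0.07, adjusted p 0.38) and YY1 (0.04, adjusted p 0.457), while GABPB1, the partner subunit of GABPA, stood at 0.36 (adjusted p 0.000643).

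Head-to-head neighbours here are protein-coding genes of the authors' deposited table whose starts lie within 1000 bases on opposite strands in GENCODE 29. Up to 300 bases of overlap were allowed, and neighbours absent from that table were not counted. This gave 16 pairs with a member. Across these pairs the log2 fold changes of the authors' deposited table had a Pearson correlation of 0.132 and a Spearman correlation of -0.0529, given as a description. MRPL36 and NDUFS6, a complex I subunit, were both higher (0.48 and 0.45), as were MRPL18 and TCP1, a subunit of the cytosolic chaperonin (0.33 and 0.64). MRPL27 was higher and its neighbour EME1, a DNA endonuclease subunit, lower (0.22 and -0.72), and MRPL13 and MTBP differed likewise (0.19 and -0.25). MRPL43 was not called (0.03) beside Twinkle, listed as C10orf2 (0.69), and MRPS27 was not called (0.08) beside PTCD2 (-0.46). Of the 16 neighbours 4 were called higher, among them MRPS11, itself a member, and 3 lower. Of all genes 24.9% were higher and 25.9% lower. Whether the pairs differ from unrelated genes was not tested. MRPL46 and MRPS11 are neighbours and both members, at 0.08 (not called) and 0.27 (higher).

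**Figure D3:**
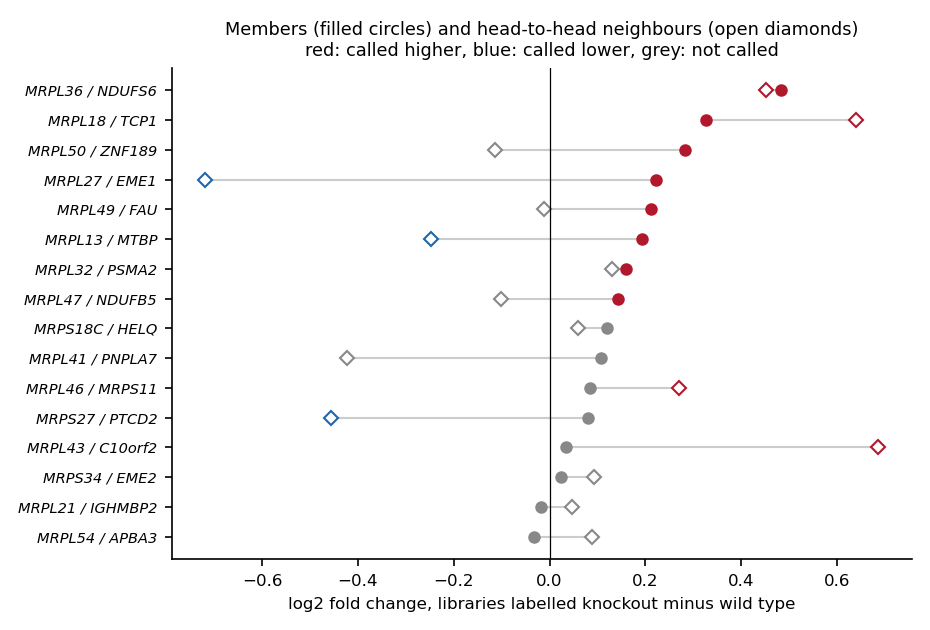
Log2 fold change (horizontal axis) of the member (filled circle) and of its neighbour (open diamond) in each of the 16 head-to-head pairs, red for called higher, blue for called lower and grey for not called. In 2 pairs member and neighbour are both red, and in 2 a red circle faces a blue diamond.

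Genes that act with the mitoribosome were counted by list, beside the 24.9% higher and 25.9% lower over all genes. Among 24 genes of mitoribosome assembly and RNA modification 10 were higher and 6 lower in the authors' deposited table (41.7% and 25%), with a median log2 fold change of 0.15. MPV17L2, a membrane protein that associates with assembling large subunits, stood at 0.66 (standard error 0.09, adjusted p 0.000202) and the pseudouridine synthase TRUB2 at 0.47 (standard error 0.07, adjusted p 0.000511). The lowest were the assembly GTPase NOA1 at -0.51 (standard error 0.06, adjusted p 4.43e-05) and the small-subunit binding factor RBFA at -0.45 (standard error 0.08, adjusted p 0.00091). The share of assembly genes called lower was thus close to that of all genes, and the share called higher was above it. The difference was not tested.

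Of 17 mitochondrial translation factors 5 were higher and 3 lower (29.4% and 17.6%, against 24.9% and 25.9% of all genes), with a median log2 fold change of 0.07. The release factor MTRF1L stood at 0.49 (adjusted p 2.25e-05) and SLIRP, which stabilises mitochondrial messenger RNA together with LRPPRC, at 0.41 (adjusted p 0.000458). LRPPRC itself stood at -0.32 (adjusted p 0.00019) in the authors' deposited table, and RMND1 at -0.21 (adjusted p 0.00966). These partner proteins, SLIRP and LRPPRC, thus had RNA that changed in opposite directions. Among 18 mitochondrial aminoacyl-tRNA synthetases and partners 8 were higher and 3 lower (44.4% and 16.7%, median 0.06). MARS2 (0.41) and QRSL1 (0.33) were the highest, WARS2 (-0.39) and PARS2 (-0.31) the lowest.

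Of 17 genes of mitochondrial DNA transcription, upkeep and biogenesis 8 were higher and 1 lower in the authors' deposited table (47.1% and 5.88%, median 0.16). The helicase Twinkle, listed as C10orf2, stood at 0.69 (adjusted p 1.88e-05) and the transcription factor TFB2M at 0.47 (adjusted p 7.96e-05), while the polymerase subunit POLG2 was the one lower, at -0.42 (adjusted p 0.000309).

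Other parts of the translation and respiratory systems were set beside the members. Of 77 cytosolic ribosomal protein genes 8 were higher and 8 lower, and the median log2 fold change was -0.03. Of 34 nuclear genes of respiratory complex I (symbols beginning NDUF) 11 were higher and 4 lower (median 0.09), and of 13 protein genes of mitochondrial DNA 5 were higher and 0 lower (median 0.17). The share called higher was 46.6% of mitoribosomal, 10.4% of cytosolic ribosomal, 32.4% of complex I and 38.5% of mitochondrially encoded genes. For all genes of the authors' deposited table it was 24.9%. Differences between these groups were not tested.

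**Figure D4:**
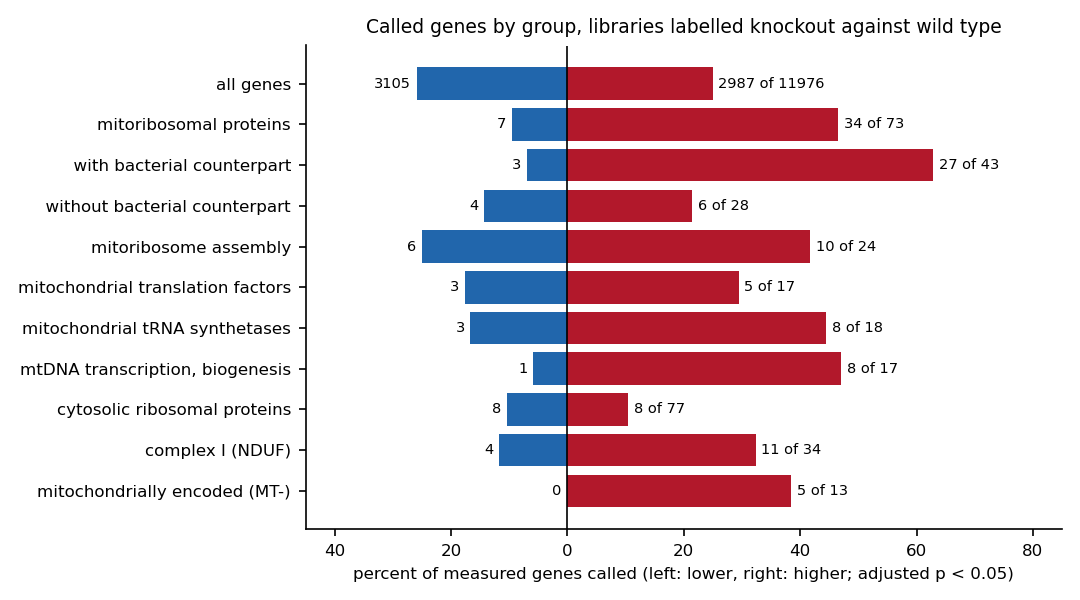
Percent of measured genes called lower (left of 0) and higher (right of 0) in the libraries labelled knockout, by gene group, with counts beside the bars. Mitoribosomal proteins have 34 of 73 genes higher and 7 lower. The classes drawn as with and without a bacterial counterpart follow the prefixes of the systematic names.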

How the data were processed

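Total RNA of HUDEP-2 cells was extracted with Trizol and made into libraries with an Illumina TruSeq kit, per the labels' protocols. The submitters' processing notes list edgeR 2.6.12, Cuffdiff, HTSeq, SAMtools and TopHat2 2.0.4 and the build hg19/GRCh37, with no roles. Filter, normalization and counting strand: not given in the sources used here. The authors' deposited table gives per gene, per the file headers, the log2 fold change and mean log2 CPM, the F score of a quasi-likelihood test, and its p-value before and after adjustment. Its file name carries the unexplained letters Pre. It has 11979 rows and 0 columns per sample, so no model was fitted; 3 rows that name no gene hold 21.5% of the CPM and were left out of every count.

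The sign was multiplied by -1 (HBG2 higher). Calls used the deposited adjusted p below 0.05. Dividing the absolute log2 fold change by the square root of F gave a derived standard error, and the t distribution with the 10.3 degrees of freedom implied by F and p gave 95% intervals; both are approximations, since the authors' quasi-likelihood fit may moderate fold changes. Benjamini-Hochberg values recomputed from the deposited p-values differed by at most 0.676%. Simulated data built with the same formulas tested only the arithmetic of the derivation, and not the effect of moderated fold changes. Python 3.11.15, pandas 2.3.3, scipy 1.17.1 and matplotlib 3.10.9 were used. Gene overlaps and neighbours came from GENCODE 29 (71 of 73 members matched by identifier) and systematic names from RefSeq, both on GRCh38, a different build from that of the files. The coordinates printed are those of the RefSeq promoter windows on GRCh38.p14.

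Members and lists were chosen with earlier results of these data known. Named were the 10 members with the largest increase and all called decreases, the members nearest the threshold on either side, members whose role is described, and the 2 highest and 2 lowest called genes of each other list, where it had that many. Cytosolic ribosomal, complex I and mitochondrially encoded genes were grouped by symbol, outside these lists, and are given by count only. Alternatives were thresholds, centring, an expression filter, membership and the sign; the classes by systematic name and the set without overlapping members were added after the data were seen.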

Additional observations from a re-analysis of the deposited data

How the results depend on the processing

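At an adjusted p below 0.01, 22 members were called, 20 higher and 2 lower; with a minimum of 1.2-fold, 22, 21 and 1. With the sign as deposited, 7 were higher and 34 lower, and the medians were -0.143 (all members), -0.082 (MRPS) and -0.155 (MRPL). Among genes of at least 5 log2 CPM the MRPS median was -0.042; the cause was not tested. Under every other alternative run (adjustment over named genes, both centrings, membership with other symbols, without MRPS36, without overlapping members) the counts of members stayed within 1.5 times and the medians kept their direction. Centring on all genes lost the call of MRPL37; centring on the median of better expressed genes (5 log2 CPM or more; 0.034) lost MRPL3, MRPL15, MRPL32, MRPL47 and MRPS16 and added MRPL23 and MRPS31 as lower.

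No paired analysis was possible because the table used here holds no values per library. Likewise no replicate was left out, no count model or other normalization was run, and depth, batches and duplicate libraries were not examined.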

Other observations

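Mitoribosomal proteins reach the organelle through the protein import machinery. Of 25 genes of the import translocases 14 were higher and 8 lower in the authors' deposited table (56% and 32%), with a median log2 fold change of 0.25 in the libraries labelled knockout. Over all genes 24.9% were higher and 25.9% lower, and the difference was not tested. The small chaperone TIMM8A stood at 0.78 (standard error 0.07, adjusted p 2.07e-05) and the channel subunit TIMM17A at 0.58 (standard error 0.06, adjusted p 4.44e-05). TIMM9, another small chaperone, stood at -0.52 (standard error 0.06, adjusted p 9.92e-05) and the motor subunit PAM16 at -0.43 (standard error 0.13, adjusted p 0.0154).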
